A study of Homo sapiens with 2 samples.

Results

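Internal alternative promoters of protein-coding genes were the regions examined, in CUT&Tag peaks of NUDT21 from 2 biological replicates of J.gamma1. A start qualified as internal when a protein-coding transcript of GENCODE release 44 began inside its gene, more than 5 kb downstream of the gene's 5′ end and more than 3 kb from the 5′ end of any gene. Peaks on chromosomes 1 to 22 and X with an edge within 1 kb of such a start were kept when they touched a peak of the other replicate. This left 2869 of 92638 peaks in replicate 1 and 3040 of 66642 peaks in replicate 2. Merged across the replicates, they formed 2816 of the 49476 regions shared by both. A start with such a peak in both replicates is called occupied here. Occupied starts numbered 4846 of 18522, in 1833 of the 6560 coding genes that had an internal start, out of 19970 coding genes in all.

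J.gamma1 is an established line of T-cell acute lymphoblastic leukemia (T-ALL), derived from Jurkat cells, that lacks phospholipase C gamma 1. The cells of both replicates formed 1 group, and no other genotype, treatment or control sample was analysed here. CUT&Tag uses an antibody to tether a transposase to chromatin where the protein sits, and the fragments cut there are sequenced. The deposited lists give each peak a fold, the signal at its highest point (the summit) relative to background, and levels of fold were compared within a list. Between the lists only the spread and rank of the folds at the same regions were set side by side.

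NUDT21 is a subunit of cleavage factor Im, which binds UGUA elements in pre-mRNA and takes part in the choice of polyadenylation sites. Many genes can begin transcription at more than 1 promoter, and a promoter inside the gene gives a transcript that lacks the first exons. Such promoters can be used in different cell types, as in RUNX1, LCK or GNAS. Annotated starts differ in kind: the canonical start is that of the reference transcript of a gene, other complete models begin elsewhere, and 5′-incomplete models are fragments whose true beginning was not found.

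To show what lies before the internal starts on which the results turn, the 120 bases upstream of 8 occupied starts are given in hg38, 5′ to 3′ on the strand of the gene. Each sequence ends at the base before the start, and only starts whose sequence overlapped no annotated UTR are shown. Capitals mark matches, on either strand, to the TATA word TATAAA, the CCAAT box, the GC box GGGCGG, the E-box CACGTG, the ETS word CCGGAAG or the YY1 word AAGATGGC. The first 6 stand for starts in GC-rich sequence under a strong or a well-known internal peak. SPG7 and TCF7 stand for starts of 5′-incomplete models.
GNAI2, chr3:50236084-50236203, plus strand: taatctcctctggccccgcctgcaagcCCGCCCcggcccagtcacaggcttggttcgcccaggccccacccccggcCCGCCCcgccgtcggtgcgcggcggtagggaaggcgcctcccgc
TMEM219, chr16:29961959-29962078, plus strand: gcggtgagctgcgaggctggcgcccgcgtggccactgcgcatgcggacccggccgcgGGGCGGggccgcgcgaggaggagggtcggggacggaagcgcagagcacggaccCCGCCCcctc
ARHGAP4, chrX:153928420-153928539, minus strand: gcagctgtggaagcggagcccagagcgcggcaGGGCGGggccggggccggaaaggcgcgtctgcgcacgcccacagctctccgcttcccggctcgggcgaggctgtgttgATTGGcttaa
PRDX1, chr1:45521939-45522058, minus strand: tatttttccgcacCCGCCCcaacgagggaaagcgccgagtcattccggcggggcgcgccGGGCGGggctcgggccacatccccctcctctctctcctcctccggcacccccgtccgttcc
SREBF1, chr17:17823619-17823738, minus strand: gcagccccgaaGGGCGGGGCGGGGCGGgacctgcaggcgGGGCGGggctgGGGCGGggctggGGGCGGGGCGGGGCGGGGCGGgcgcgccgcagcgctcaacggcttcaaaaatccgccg
RUNX1, chr21:34888691-34888810, minus strand: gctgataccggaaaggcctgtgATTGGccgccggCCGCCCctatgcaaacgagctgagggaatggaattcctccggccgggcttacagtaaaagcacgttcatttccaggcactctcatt
SPG7, chr16:89554366-89554485, plus strand: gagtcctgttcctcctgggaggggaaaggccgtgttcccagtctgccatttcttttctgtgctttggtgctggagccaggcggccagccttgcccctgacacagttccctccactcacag
TCF7, chr5:134142065-134142184, plus strand: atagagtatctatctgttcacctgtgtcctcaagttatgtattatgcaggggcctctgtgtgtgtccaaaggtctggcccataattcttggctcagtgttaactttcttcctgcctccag

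For contrast, the same bases are given for internal starts of 3 genes known for tissue-specific promoters, at which neither replicate had a peak.
MITF, chr3:69758584-69758703, plus strand: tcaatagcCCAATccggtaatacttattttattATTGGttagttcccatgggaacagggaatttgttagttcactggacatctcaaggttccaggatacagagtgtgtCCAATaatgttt
PPARG, chr3:12299481-12299600, plus strand: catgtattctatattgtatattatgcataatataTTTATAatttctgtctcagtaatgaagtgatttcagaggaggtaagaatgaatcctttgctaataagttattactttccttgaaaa
DMD, chrX:33211550-33211669, minus strand: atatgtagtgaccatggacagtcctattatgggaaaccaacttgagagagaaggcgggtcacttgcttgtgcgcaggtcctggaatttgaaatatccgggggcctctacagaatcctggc

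The occupied and unoccupied examples differed in letters as well as in peaks. The GC content of the 120 bases was 77.5% before the GNAI2 start, 80.8% before the TMEM219 start and 83.3% before the SREBF1 start, and the SREBF1 sequence held 9 GC boxes. The RUNX1 sequence held a reversed CCAAT match and a reversed GC box. By contrast, the SPG7 and TCF7 sequences held none of the motifs and ended in AG, the last bases of an intron before an exon. The GC content was 25.8% before the PPARG start, 38.3% before the MITF start and 50% before the DMD start. A match is a description of letters, and no match says only that these letters are not in this window.

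Read totals are unknown, but the deposited values gave back the number of fragments at each summit, with a median over all peaks of 30 in replicate 1 and 20 in replicate 2. The pileup scale under which these values could be solved was 0.921 in replicate 1 and 1 in replicate 2. It was inferred from the deposited values, as the options of the peak calling are not given. At the retained peaks the medians were 42 and 24 fragments. Of the replicate 1 peaks near an internal start, 69.0% touched a replicate 2 peak, and of those of replicate 2, 93.2% touched a replicate 1 peak. Over all peaks these shares were 56.4% and 85.7%. The median fold of the retained peaks was 4.92 in replicate 1 and 4.66 in replicate 2. All peaks had 3.95 and 4.23, but retained peaks had to touch a peak of the other replicate, and all peaks that did so had 4.44 and 4.35. The median length of the retained peaks was 1395 bp and 968 bp, and that of all touching peaks 929 bp and 725 bp. A longer peak more easily has an edge within 1 kb of a start and touches another peak, so the rule itself favours long peaks. Neither the greater length nor the higher touching share can therefore be read as a trait of internal starts. Retained peaks of 5 kb or longer numbered 367 in replicate 1 and 214 in replicate 2, so a part of the internal starts lay under broad peaks whose summit was elsewhere.

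To check the cell type, marker genes of blood lineages were counted. Both replicates shared a peak at the 5′ end of 7 of 14 T-cell marker genes, 4 of 7 B-cell markers, 3 of 7 myeloid markers and 2 of 5 erythroid markers, where 46.3% of all coding gene 5′ ends were occupied. Of the markers with an internal start, 2 of 5 T-cell genes had an occupied one, and 0 of 4 B-cell, 0 of 2 myeloid and 0 of 2 erythroid genes did. These counts are too small to set the T-cell identity of the line apart.

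To examine how often internal starts carried a peak, they were compared with the 5′ ends of genes and with exons that lie inside genes but away from any start. Occupied starts made up 26.2% of internal starts (95% Wilson interval 25.5 to 26.8). Counting any peak of a single replicate, the share was 36.7% in replicate 1 and 27.7% in replicate 2, a mean of 32.2% ± 6.40 (SD, n = 2). Gene 5′ ends were occupied in 46.3% of cases. Inner exons more than 3 kb from every transcript start were occupied in 12.0% of cases, and in 10.6% within the genes that had an internal start. The order of these 3 kinds of position was the same in each replicate. Intervals cover counting error only, and neighbouring starts can share a peak.

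Among the internal starts, those of the canonical transcript were occupied most often. They were occupied in 34.6% of cases (32.3 to 37.0, 541 of 1562), other complete models in 26.3% (25.5 to 27.1, 3037 of 11555) and 5′-incomplete models in 23.5% (22.3 to 24.6, 1268 of 5405). The difference between canonical and 5′-incomplete starts was 11.2 percentage points. Counting any peak, the 3 shares in replicate 1 were 49.3%, 37.9% and 30.6%, and in replicate 2 they were 35.8%, 27.7% and 25.3%. The order held in both replicates, with a difference between canonical and 5′-incomplete starts of 18.7 percentage points in replicate 1 and 10.5 in replicate 2. Starts with no other start within 3 kb were occupied less often, in 21.7% (canonical), 12.8% (other complete) and 11.9% (5′-incomplete) of cases, and over all such starts in 12.9%, near the 12.0% of inner exons.

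**Figure D1:**
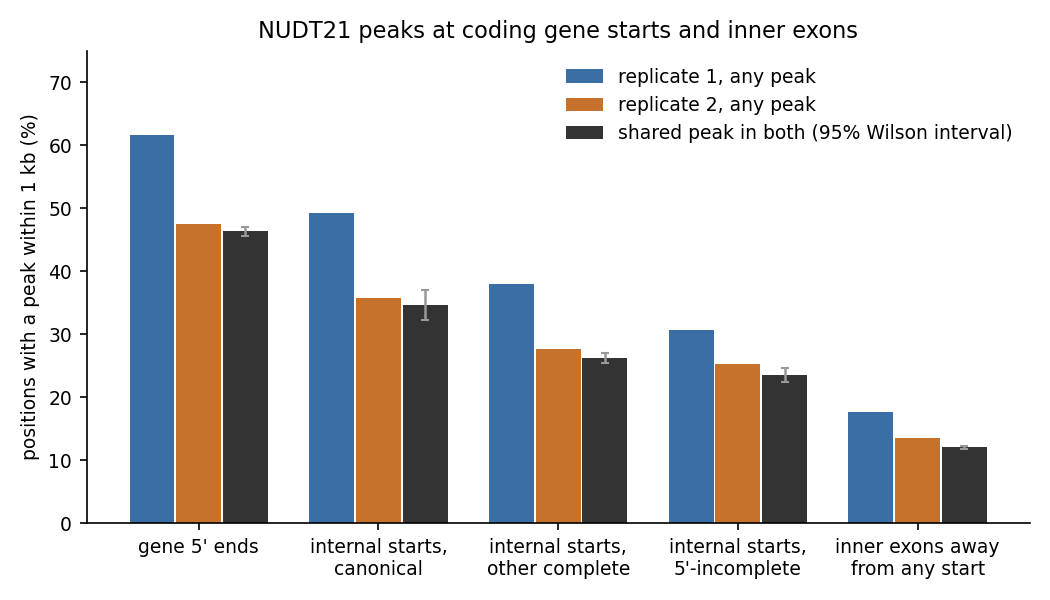
Share of positions with a peak within 1 kb (%), for gene 5′ ends, the 3 kinds of internal start and inner exons away from any start. Blue and orange bars count any peak of replicates 1 and 2, and dark bars, with 95% Wilson intervals, are positions with a shared peak in both. The dark bars fall from 46.3% at gene 5′ ends through 34.6%, 26.3% and 23.5% at internal starts to 12.0% at inner exons.

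GC content moved strongly with these shares. Internal starts in sequence under 40% GC (in the 250 bases before to 50 after the start) were occupied in 1.75% of cases, and inner exons of like GC in 0.730%. At 40 to 50% GC, internal starts were occupied in 6.80%, inner exons in 5.29% and gene 5′ ends in 19.4% of cases. At 50 to 60% GC the shares were 35.3%, 33.1% and 46.9%. At 60 to 70% GC the order of the first 2 was reversed, with 59.5% of internal starts, 64.9% of inner exons and 62.5% of gene 5′ ends occupied. At 70% GC or more, 50.8% of internal starts, 74.8% of the 214 inner exons and 56.6% of gene 5′ ends were occupied. Thus internal starts exceeded inner exons of like GC content by a few percentage points below 60% GC and fell short of them above it. Canonical internal starts of 60 to 70% GC were occupied in 49.9% of cases (45.2 to 54.6), below 5′-incomplete starts with 73.5% (70.4 to 76.4). Occupancy alone therefore did not set these starts apart from exons of like GC content, and their label as promoters rests on the annotation.

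**Figure D2:**
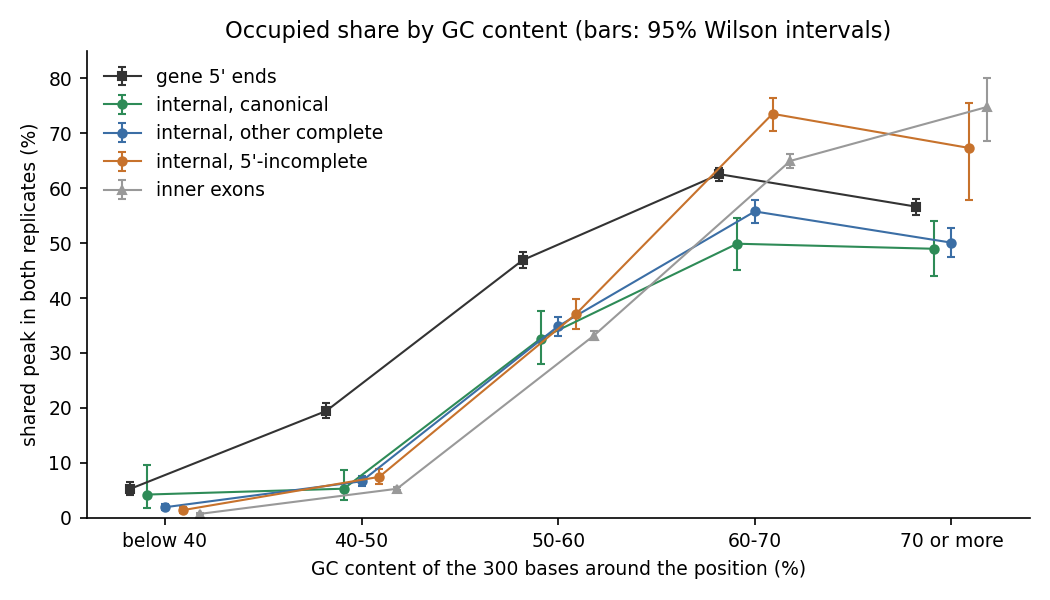
Share of positions occupied in both replicates (%), against the GC content of the 300 bases around the position, for gene 5′ ends, the 3 kinds of internal start and inner exons, with 95% Wilson intervals. All 5 lines rise steeply between 40% and 70% GC. The 3 kinds of internal start and inner exons lie close together up to 60% GC. At 50 to 60% GC the values are 32.6% (canonical), 34.9% (other complete), 37.1% (5′-incomplete) and 33.1% (inner exons), while gene 5′ ends lie higher there, at 46.9%.

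Distance into the gene also moved with occupancy. Internal starts 5 to 10 kb into the gene were occupied in 43.4% of cases, those 20 to 50 kb in 29.8% and those more than 100 kb in 7.62%. Inner exons fell in the same way, from 24.0% through 14.5% to 4.49%. By position relative to the canonical transcript, 40.8% of the occupied starts lay in an exon, 18.9% in the first intron, 14.9% in a later intron, 14.0% upstream of the canonical start and 11.2% at it. Over all internal starts these shares were 41.6%, 18.3%, 20.4%, 11.2% and 8.43%. The share of starts that were occupied was lowest in later introns (19.1%) and higher upstream of the canonical start (32.7%).

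Where the summits lay separated the kinds of start in a way that occupancy did not. Of the peaks near canonical internal starts, 54.6% in replicate 1 and 43.7% in replicate 2 had their summit within 250 bp of the start. Peaks at gene 5′ ends had 53.0% and 43.9%. Peaks near other complete models had 35.9% and 32.6%, and those near 5′-incomplete models 20.4% and 21.8%. Inner exons had 34.3% and 35.9%. Hence summits sat as close to canonical internal starts as to gene 5′ ends in both replicates, and they were more spread at 5′-incomplete starts. Each distance ran to the nearest position of its own class, and there were 82182 inner exons but 5405 5′-incomplete starts. Denser positions give shorter distances, so the shares of these 2 classes cannot be set against each other. The median distance was 222 bp and 297 bp at canonical starts and 757 bp and 707 bp at 5′-incomplete starts.

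**Figure D3:**
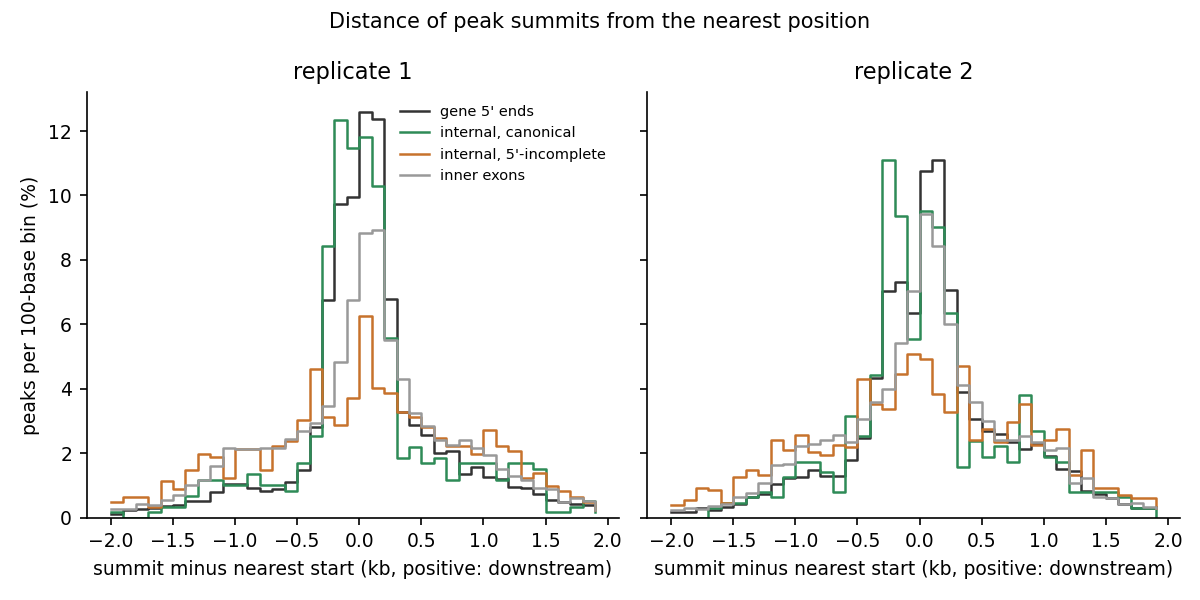
Distance of the peak summit from the nearest position (kb, positive downstream), as the share of peaks per 100-base bin (%), in replicate 1 (left) and replicate 2 (right). Canonical internal starts (green) and gene 5′ ends (black) are high within 250 bp of the start, with 54.6% and 53.0% of replicate 1 peaks there, and 5′-incomplete starts (orange) are low, with 20.4%.

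The bases around the starts were compared next. Median GC content was 61.7% at occupied internal starts, 45.7% at unoccupied ones and 60.3% at gene 5′ ends. Sequence was called CpG-rich when it had over 55% GC and an observed to expected CpG ratio above 0.6. It was CpG-rich at 37.1% of occupied internal starts, 13.2% of unoccupied ones and 50.6% of gene 5′ ends. Occupied canonical internal starts were CpG-rich in 68.0% of cases, close to the 65.4% of occupied gene 5′ ends, and occupied 5′-incomplete starts in 11.9%. Peaks near CpG-rich internal starts had their summit within 250 bp in 49.8% (replicate 1) and 39.8% (replicate 2) of cases, and those near other internal starts in 24.8% and 25.5%. CpG-rich inner exons had 20% and 18.9%. They were only 520 positions, with distances to the nearest of them, so their shares cannot be set against those of the more numerous internal starts.

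Motif letters followed the same division. The GC box was found on either strand in the 300 bases of 46.8% of occupied internal starts, 17.6% of unoccupied ones and 52.4% of all gene 5′ ends, and of occupied canonical starts 72.1% held it. The ETS letters CCGGAAG were found at 8.32% of occupied starts, 2.38% of unoccupied ones and 11.9% of gene 5′ ends. The E-box CACGTG was found at 8.03%, 3.80% and 8.35%, and the YY1 letters AAGATGGC at 2.41%, 1.44% and 3.04%. The AT-rich words went the other way. TATAAA was found at 5.04% of occupied starts, 20.2% of unoccupied ones and 10.8% of gene 5′ ends. CCAAT was found at 28.9%, 34.7% and 35.9%, but its share depended on the kind of start. It was found at 38.1% of occupied canonical internal starts and 21.8% of occupied 5′-incomplete ones. TGTA, the DNA form of the UGUA element, was found at 53.7% of occupied starts, 78.2% of unoccupied ones and 56.2% of gene 5′ ends. These shares were not adjusted for GC content. The letters of an intron end, AG, stood just before 20.7% of occupied 5′-incomplete starts and 21.2% of all 5′-incomplete starts. For canonical internal starts the shares were 1.48% (occupied) and 1.34% (all), and for gene 5′ ends 2.97% and 3.72%. AG thus differed between the kinds of start and little with occupancy.

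The next question was whether the 5′ end of the same gene also had a peak. Of the 1833 genes with an occupied internal start, 1318 (71.9%, 69.8 to 73.9) had a peak at the 5′ end in both replicates. The share was 44.3% over all genes with an internal start and 33.7% over those without an occupied one. Another 237 genes had the 5′ peak in replicate 1 only, 16 in replicate 2 only, and 262 (14.3%, 12.8 to 16.0) in neither. Within genes whose 5′ end had 60 to 70% GC, 85.5% with an occupied internal start and 48.9% without had the 5′ peak. Where the 5′ end had under 50% GC, these shares were 29.0% and 12.1%. So occupied internal starts went together with an occupied 5′ end at each level of GC of the 5′ end.

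Genes with an internal peak only more often had an occupied canonical start inside. How often genes with an unoccupied 5′ end have a canonical start inside at all, occupied or not, is not given here. In 165 of the 262 genes without a 5′ peak (63.0%, 57.0 to 68.6), an occupied internal start was the canonical one. Among genes with the 5′ peak in both replicates this was so in 308 of 1318 (23.4%, 21.2 to 25.7). In these 165 genes the peak lay near the start of the reference transcript, and the unoccupied 5′ end belongs to another transcript.

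Where both ends had a peak, the fold was higher at the 5′ end in both replicates more often than at the internal start. The internal fold of a gene was the highest over all its internal starts, taken separately in each replicate. It was thus a maximum set against a single 5′ end, and only internal peaks had to touch the other list. The median over the 1318 genes was 5.83 inside and 6.92 at the 5′ end in replicate 1, and 5.42 and 5.68 in replicate 2. The internal fold was higher in both replicates in 352 genes (26.7%, 24.4 to 29.2), the 5′ fold in 568 (43.1%), and 398 were mixed or equal. In 43 genes of replicate 1 and 17 of replicate 2, a single peak reached both ends. The direction turned in the 308 genes with an occupied canonical start inside. There the median internal fold was 6.89 against 5.71 at the 5′ end in replicate 1 and 5.82 against 5.05 in replicate 2. This fold need not be that of the canonical start, so the canonical start itself was not set against the 5′ end. The internal fold was higher in both replicates in 136 of them (44.2%, 38.7 to 49.7) and the 5′ fold in 88. In the other 1010 genes the internal fold was higher in both replicates in 216 (21.4%, 19.0 to 24.0) and the 5′ fold in 480. Differences beyond 2-fold in both replicates were few, with 34 genes higher inside and 81 higher at the 5′ end.

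**Figure D4:**
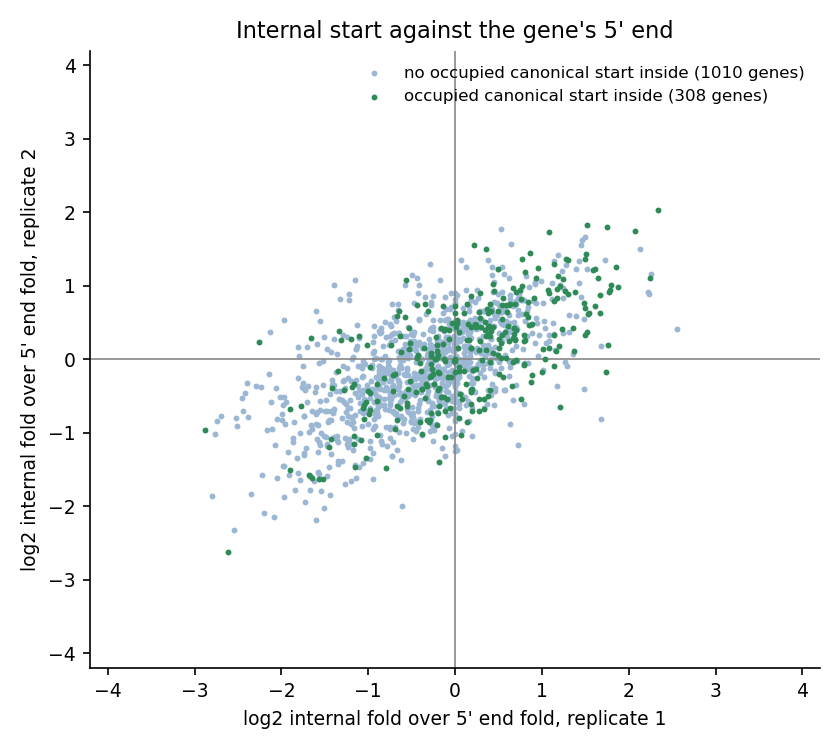
Log2 of the internal fold over the 5′ end fold in replicate 1 (x axis) and replicate 2 (y axis), 1 point per gene with a 5′ peak in both replicates. The internal fold is the highest over all internal starts of the gene in that replicate. Genes with an occupied canonical start inside (green, 308 genes) lie more often above 0 on both axes, 136 of them, than the other 1010 genes (blue), of which 216 lie above 0 on both.

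Across the 2637 regions with a retained peak of each replicate, the fold spanned 1.85 to 53.0 in replicate 1 and 2.00 to 39.5 in replicate 2. Spearman's rank correlation of the folds was 0.705 across regions, which are in part neighbours and are not independent. The log2 ratio of the folds had an SD of 0.44. Regions of genes with the 5′ peak in both replicates numbered 1926, with a median fold of 5.23 and 4.96. The 330 regions of genes without a 5′ peak had a median of 4.42 and 4.23.

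**Figure D5:**
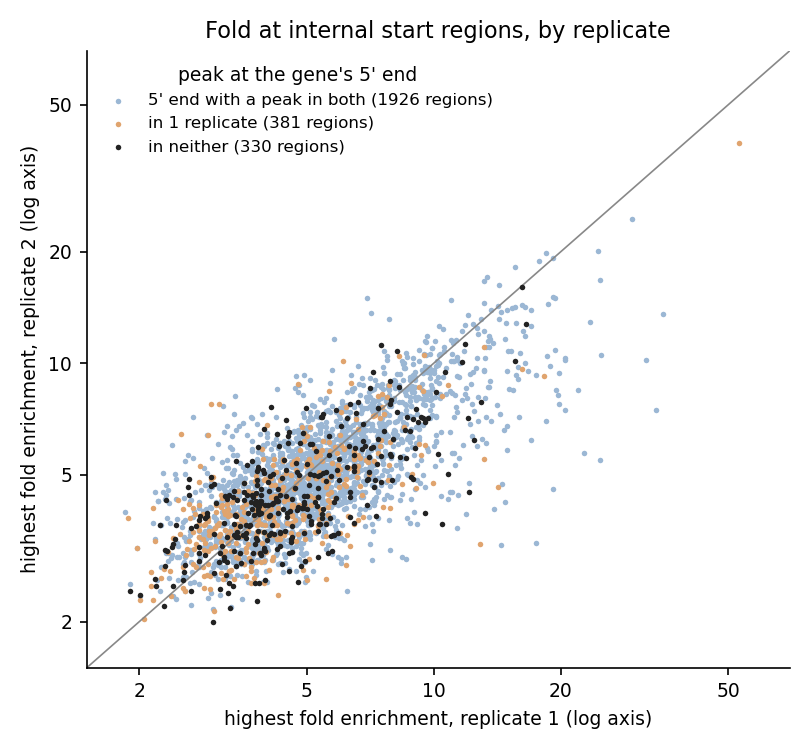
Highest fold of each internal region in replicate 1 (x axis) and replicate 2 (y axis), both log axes, coloured by whether the 5′ end of the gene had a peak. The 330 regions without a 5′ peak (black) spread over most of the range, and the point at the upper right is LIMS2, with 53.0 and 39.5.

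Among the 10 regions that ranked highest by fold over both replicates, 3 had their summits within 250 bp of the start in both. GNAI2, which encodes an inhibitory G protein alpha subunit, was among these, under peaks of 4368 bp and 7971 bp. Its canonical start on chromosome 3 at position 50236204, 9.91 kb inside the gene (50226292 to 50259362), had a fold of 24.8 in replicate 1 and 16.8 in replicate 2, with summits 182 bp and 228 bp upstream. The 5′ end of GNAI2 had 7.79 and 9.12, so the internal peak was higher in both. ARHGAP4, which encodes a GTPase-activating protein of blood cells, had a start at position 153928419 of chromosome X, 6.58 kb inside the gene (153907367 to 153934999) and upstream of the canonical start. Its fold was 29.5 and 24.6, and the summit lay 35 bp downstream of the start in both replicates. The 5′ end of ARHGAP4 had 5.85 and 5.99. MYO7B, which encodes an unconventional myosin, had a start in a later intron (chromosome 2, position 127620026) with 18.4 and 19.9 and summits 41 bp downstream and 94 bp upstream. Its 5′ end had 6.52 and 6.28.

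Other regions among the 10 had summits more than 1 kb from the start. LIMS2, which encodes a focal adhesion adaptor, had the highest fold, 53.0 and 39.5 with 364 and 185 fragments at the summit. Its 5′ end had a peak in replicate 1 only, of 3.57. Its internal peaks were 41176 bp and 38652 bp long and their summits lay 2970 bp and 4326 bp downstream of the start in a later intron at position 127650538 of chromosome 2. RPL36, which encodes a protein of the large ribosomal subunit, had peaks of 39166 bp and 15795 bp with summits 9450 bp and 3282 bp upstream of its canonical start, and the same broad peak took in starts of LONP1. In PIGQ, SPG7, MED16 and PKMYT1 the start was that of a 5′-incomplete model in an exon, and every summit lay more than 1 kb away. In SPG7 and MED16 no peak reached the start itself in either replicate, and each began within 1 kb of it. Their folds lay between 17.8 and 35.0 in replicate 1 and between 13.6 and 18.9 in replicate 2.

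Among genes whose 5′ end had no peak in either replicate, the 5 strongest regions were in TMEM219, PRDX1, MORF4L1, GSE1 and NKIRAS2. TMEM219, which encodes a membrane receptor for an IGF-binding protein, had 16.2 and 16.1 at its canonical start, at position 29962079 of chromosome 16 and 21.2 kb inside the annotated gene. PRDX1, which encodes a peroxiredoxin, had 16.5 and 12.7 at a start upstream of the canonical one (chromosome 1, position 45521938), with summits 35 bp and 41 bp upstream. MORF4L1, which encodes a chromatin protein that binds methylated histone H3, had 15.6 and 10.1 with summits 20 bp and 18 bp upstream of a start at position 78872887 of chromosome 15. The starts of PRDX1 and MORF4L1 lay in CpG-rich sequence of 63.0% and 73.7% GC. GSE1 had 11.9 and 9.31 at a start 442 kb into the gene, under peaks of 21664 bp and 6207 bp. NKIRAS2, a regulator of NF-kappa-B signalling, had 11.7 and 10.1, and its region also held starts of DNAJC7.

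Most genes had a single internal region. Of the 1811 genes with a region held by both replicates, 1289 had 1 region, 345 had 2 and 177 had 3 or more. TBCD, a chaperone of tubulin folding, had 10, AKT2, a serine/threonine kinase of insulin signalling, had 9, and SEPTIN9, a cytoskeletal GTPase, had 8. The strongest region of TBCD had 9.79 and 9.66, that of AKT2 6.85 and 5.99, and that of SEPTIN9 9.84 and 8.75. In TBCD and AKT2 it was near a 5′-incomplete start in an exon, with summits more than 1 kb away, and the 5′ ends had 16.2 and 6.21 (TBCD) and 8.37 and 5.77 (AKT2). The canonical starts farthest from the 5′ end of their gene lay in ARHGEF3, 277 kb inside, and in IQSEC1, 210 kb inside. ARHGEF3, which encodes a guanine nucleotide exchange factor, had 4.54 and 4.21 with summits 217 bp and 219 bp upstream. IQSEC1, an exchange factor for ARF6, had 5.05 and 5.52 with both summits 1154 bp downstream. Neither peak reached the IQSEC1 start itself, and each had its nearest edge within 1 kb of it.

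Of the 15 listed genes known for alternative promoters in blood cells that had an internal start, 3 were occupied: RUNX1, LCK and TCF7. Over all genes with an internal start the share was 27.9%. RUNX1, a transcription factor of blood stem cells and T-ALL, has a distal promoter and a proximal promoter inside the gene. The outermost annotated 5′ end of RUNX1 and the internal start differed by 1116 kb, and that 5′ end had no peak in either replicate. Whether it is the distal promoter was not examined, so the state of the distal promoter is not given here. At the internal start (chromosome 21, position 34888690) the fold was 9.53 in replicate 1 and 3.93 in replicate 2, with summits 191 bp and 1343 bp upstream and 92 and 27 fragments. A separate region near the start at position 34887183 had 3.82 and 4.82. Thus RUNX1 carried internal peaks in both replicates, but their order of height differed between them.

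LCK, the kinase that starts T-cell receptor signalling, is also transcribed from a distal and a proximal promoter. Its start 22.9 kb inside the gene (chromosome 1, position 32274132) had 6.67 and 6.23, with summits 885 bp and 2435 bp downstream, and its 5′ end had 8.88 and 6.12. The internal fold was thus lower than the 5′ fold in replicate 1 and slightly higher in replicate 2. TCF7, a transcription factor of T-cell development, had 5.47 and 5.70 near a 5′-incomplete start 27.5 kb inside, and 3.64 and 4.35 near a start in an intron 8.94 kb inside. Both regions of TCF7 were long, and its 5′ end was higher, with 11.5 and 10.7. In 4 further genes of the list, FLI1, FOXP1, GATA2 and PRDM1, only replicate 1 had a peak, and in the remaining 8 neither had: BCL11A, BCL6, CIITA, CREM, ERG, ETV6, IKZF1 and LMO2.

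Widely expressed genes known for alternative promoters were occupied in 8 of 14 cases, and genes whose alternative promoters are best known in other tissues in 3 of 16. These few genes can be read only against the 27.9% of all genes with an internal start. Among the widely expressed genes, SREBF1, a regulator of lipid synthesis, had 11.6 and 10.02 in the first intron, with summits 134 bp and 293 bp upstream of a start of 80.3% GC, and its 5′ end had 8.07 and 6.97. The same peak was 17192 bp and 17373 bp long. GNAS encodes the stimulatory G protein alpha subunit and has imprinted promoters. It had 9.999 and 5.96 near a start 52.4 kb inside, and 4.93 and 4.15 at the 5′ end. The internal summits lay 345 bp downstream and 1526 bp upstream of that start, and the replicate 2 peak ended short of it. KDM2B, a histone demethylase of a Polycomb complex, had 9.49 and 10.5 at a start in a later intron, and a 5′ peak of 6.24 in replicate 1 only. The internal fold was higher in every replicate with both values in these 3 genes.

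MACF1, ADAR, TPM3 and DNMT3A were also occupied. MACF1, a cytoskeletal linker, had regions near 3 starts, the highest with 9.23 and 6.04, and its canonical start 123 kb inside had 5.09 and 5.34. ADAR, an RNA-editing enzyme with an interferon-induced promoter, had 6.10 and 5.82 inside and 3.93 and 3.47 at the 5′ end. TPM3, a tropomyosin, had 5.95 and 6.38 inside and 4.93 and 4.76 at the 5′ end. DNMT3A, a DNA methyltransferase, had 3.69 and 3.04 inside, below its 5′ end with 4.38 and 4.73. The internal fold exceeded that at the 5′ end in both replicates for ADAR and TPM3 and was below it in both for DNMT3A.

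Of the genes of other tissues, HNF4A, a liver transcription factor, had 4.64 and 4.15 near a 5′-incomplete start, with summits 26 bp and 97 bp downstream and 29 and 17 fragments. SHANK3, a scaffold protein of synapses, had 3 regions, the one highest in replicate 1 with 5.71 and 4.84. TP73, a transcription factor with an internal promoter for its N-terminally truncated form, had 3 regions with folds of 2.85 to 4.46 (replicate 1) and 3.12 to 5.05 (replicate 2). DMD with 24 internal starts, TCF4 with 41 and PAX6 with 21 had no peak at any of them in either replicate. Of the genes the study followed, 4 had an internal start, and RUNX1 alone was occupied. The other 3 were ETV6, GATA3 and UBE2D3, of which ETV6 had 5.70 and 5.001 and UBE2D3 3.76 and 3.68 at the 5′ end, and GATA3 had a 5′ peak of 2.59 in replicate 1 only.

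Chromosomes differed widely. Internal starts were occupied in 63.9% of cases on chromosome 19, 58.5% on 22, 55.3% on 17 and 47.5% on 16, and in 7.78% on chromosome 13 and 6.41% on 18. The median GC content of the internal starts was 59.3% on chromosome 19 and 45.3% on chromosome 18. The 5′ ends of coding genes were occupied in 72.3% and 24.8% of cases on the same chromosomes, so they differed in the same direction.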

How the data were processed

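CUT&Tag with an antibody against NUDT21 was performed on 2 biological replicates of J.gamma1 cells, which formed 1 group. According to the submitters' processing notes and the methods, the authors processed reads with fastp, aligned them to hg38 with Bowtie2 2.2.5, removed duplicates with Picard and called peaks in each replicate with MACS3 3.0.1. Options and a control library are not given in the sources used here. Per deposited peak, the authors gave the fold (a ratio at the summit over background), the −log10 p-value and −log10 q-value there, and the summit offset. The number of fragments at the summit was solved from these deposited values, since MACS computes them from 1 pileup and 1 background, and 99.995% and 100% of peaks had a solution. The recovery and the assignment of peaks to starts were tested on simulated data.

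Peaks were intersected with GENCODE 44 starts on hg38 in Python 3.11.15 (numpy 2.4.6, pandas 2.3.3, scipy 1.17.1, pysam 0.24.0). The annotation release of the authors is not given in the sources used here. Distances ran from the nearest peak edge, and touching peaks were merged into regions. A region was named after the occupied start nearest to its replicate 1 summit, and named starts carry the highest fold within 1 kb. CpG and motifs were counted in 300 bases (250 before and 50 after the start). Intervals of shares are 95% Wilson intervals and describe counting error alone. With 1 group of 2 samples no test between groups was possible, and none was run.

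Named genes were the 10 regions whose fold ranks summed lowest, the 5 such without a 5′ peak, the 3 genes with most regions, the 2 farthest canonical starts and the members of 4 gene lists. Members and lists were chosen with earlier results of these data known. Alternatives were stricter and looser peaks, distances, overlaps and start classes, and each replicate alone. Some members that this rule names are not reported here.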

Additional observations from a re-analysis of the deposited data

How the results depend on the processing

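Of 80 alternative values, 71 of them planned, 58 stayed within the spread between replicates or within 1.5 times a count. Another 22 moved further, and 0 turned their direction. Counts and plain shares have no direction to turn, so only the differences could do so. Levels of GC content were not among these alternatives. Across them the difference between canonical and 5′-incomplete starts did turn, from 4.24% against 1.39% under 40% GC to 49.9% against 73.5% at 60 to 70% GC. Peaks of 5 kb or longer left out and isolated starts only were chosen after seeing the data. The 2816 shared regions became 663 with the 10000 peaks of highest −log10 p per list and 1755 with 5′-incomplete models left out. The occupied share of internal starts, 26.2%, became 18.5% with the summit within 1 kb, 8.50% with 10000 peaks per list, 18.2% with a reciprocal overlap, and 12.9% with isolated starts only. The share of genes with the 5′ peak, 71.9%, became 52.7% with summits within 1 kb, 52.5% with 10000 peaks, 65.3% without 5′-incomplete models, 80.4% with a 5′ peak within 3 kb and 62.4% without peaks of 5 kb or longer. The difference in median GC between occupied and unoccupied starts, 16 percentage points, was 14.7 with summits within 1 kb, 15 with 10000 peaks, 13.7 with a reciprocal overlap, 15 without 5′-incomplete models and 14.7 without long peaks.

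With each replicate left out in turn, the regions became 3263 to 4156 peaks, the occupied share 27.7% to 36.7%, the share with the 5′ peak 71.3% to 80.0%, the share of genes with the internal fold higher 38.6% to 44.3% (26.7% when both replicates had to show it), the difference between canonical and 5′-incomplete starts 10.5 to 18.7 percentage points, the excess of the median fold over all peaks 0.339 to 0.403 (0.698 with both, where retained peaks had to touch the other list), and the difference in GC 16 to 17.3. Here a peak no longer has to touch the other list, so more peaks are kept by construction. No paired analysis was possible because the only group held both replicates. Depth is known only relative to the peaks, so a start without a peak is one at which none was called.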
